A study of Mus musculus with 4 samples.

Results

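The insulin-like growth factor (IGF) system was read in 4 RNA-Seq libraries of mouse retina as the 9 of 48897 genes in the deposited table with the symbols Igf1, Igf2, Igf1r, Igfbp2, Igfbp3, Igfbp4, Igfbp5, Irs1 and Irs2. All 9 were among the 17766 genes that passed the filter on low counts and were tested. The retinas came from wild-type C57BL/6 mice (C57BL/6J in the study's methods) of postnatal day 9. On postnatal day 3, the left eye had received an antagomir against miR-124-3p, 0.6 nmol in 1 μl injected into the vitreous (anti-miR-124 group), and the right eye the same amount of a scrambled control (negative control, NC group). An antagomir is a chemically modified antisense RNA that binds a mature microRNA and keeps it from its targets. Each group has 2 libraries of RNA pooled from several retinas, from more than 1 litter. Treatment and side of the body cannot be told apart, and fewer cells of a type and less RNA per cell cannot be told apart either in RNA of the whole retina.

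IGF1 and IGF2 are secreted ligands that signal through the receptor tyrosine kinase IGF1R. Insulin receptor substrates carry the signal from the receptor to the PI3K-AKT and RAS-MAPK cascades, and IGF binding proteins hold the ligands in the extracellular space and limit or prolong their access to the receptor. In the retina the system is known for its part in the survival of neurons and the growth of vessels.

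The libraries held between 16317239 and 18726963 reads counted on genes. Each number in the column names is shared by 1 library of a left eye and 1 of a right eye, which gives pair A (libraries NC-A and anti-A) and pair B (NC-B and anti-B). All 19 markers of retinal cells were detected, and their summed level was 8758 to 9859 TPM (transcript abundance, reads per gene length scaled to a common total). Both NC-A and anti-B stood apart from the rest. NC-A held lens transcripts, with 21 lens genes summing to 65090 TPM (6.51% of the total) against 129.1 to 182.9 TPM in the other libraries. Anti-B had the highest summed TPM of 15 markers of microglia and macrophages (581.3 against 196.3 to 246.6) and of 13 genes of reactive gliosis (1128 against 544.1 to 748.7). Because lens transcripts take up part of the total in one library, ratios are given on TMM-normalized CPM (counts scaled to library size with less weight on a few abundant genes), and levels are given as TPM. Over all genes tested, the median log2 ratio of pair A was -0.009 with TMM and 0.098 with TPM.

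No member passed the test between the groups. In edgeR's quasi-likelihood test, the adjusted p-value (Benjamini-Hochberg over all genes tested) was 0.989 for each of the 9 members, and 0 of 17766 genes (0%) had one under 0.05. At an unadjusted p-value under 0.05, 1 of the 9 members, Igf2, was higher in the anti-miR-124 group, against 396 of all genes (2.23%), and 694 genes in either direction. With DESeq2, 36 genes and none of the members had an adjusted p-value under 0.05, and with limma-voom no gene did. Without the filter on low counts, 379 of 31982 genes and 2 members (Igf2 and Igfbp5) had one under 0.05 in edgeR's test. The log2 fold change was above 0 for 8 of 9 members, against 8912 of all 17766 genes tested. Its median was 0.22 for the members against 0.001 for all genes. That median depended on pair B, with a median log2 ratio of the members of 0.40 there and 0.026 in pair A. Without anti-B, the median log2 fold change of the members was 0.015.

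The groups did not overlap for 4 members, Igf1, Igf2, Igf1r and Irs2, with both anti-miR-124 libraries above both NC libraries by TMM-normalized CPM, which held for 16.5% of all genes. No member had both anti-miR-124 libraries below both NC libraries, a pattern of 16.8% of all genes. By the study's own rule, the same sign of the log2 TPM ratio in both pairs, 5 members were higher (those 4 and Igfbp3) against 32.3% of all genes, and 0 were lower against 14.8%. By TMM-normalized counts the same 5 members were higher in both pairs (22.8% of all genes) and 1, Irs1, was lower (24% of all genes). The study's own gene sets, drawn up on these libraries, held Igf1, Igf2, Igfbp3 and Irs2. All members were chosen with earlier results of these data known, so the direction of none of them is independent evidence.

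By mean TPM over the 4 libraries, the most abundant member was Igf2 (114.7), followed by Igfbp4 (92.8), Igf1r (89.9), Igfbp2 (76.6) and Igfbp5 (76.4). The ranges of neighbours in this order overlapped, so the order among these 5 is within the spread of the libraries. The next 3 were Irs1 (20.8), Irs2 (18.8) and Igf1 (18.6), which also overlapped and lay below every library of the first 5. Igfbp3 was the least abundant (10.9), with each of its libraries below each library of Irs1 and Igf1, but its highest library (14.5) above the lowest of Irs2 (14.1).

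**Figure D1:**
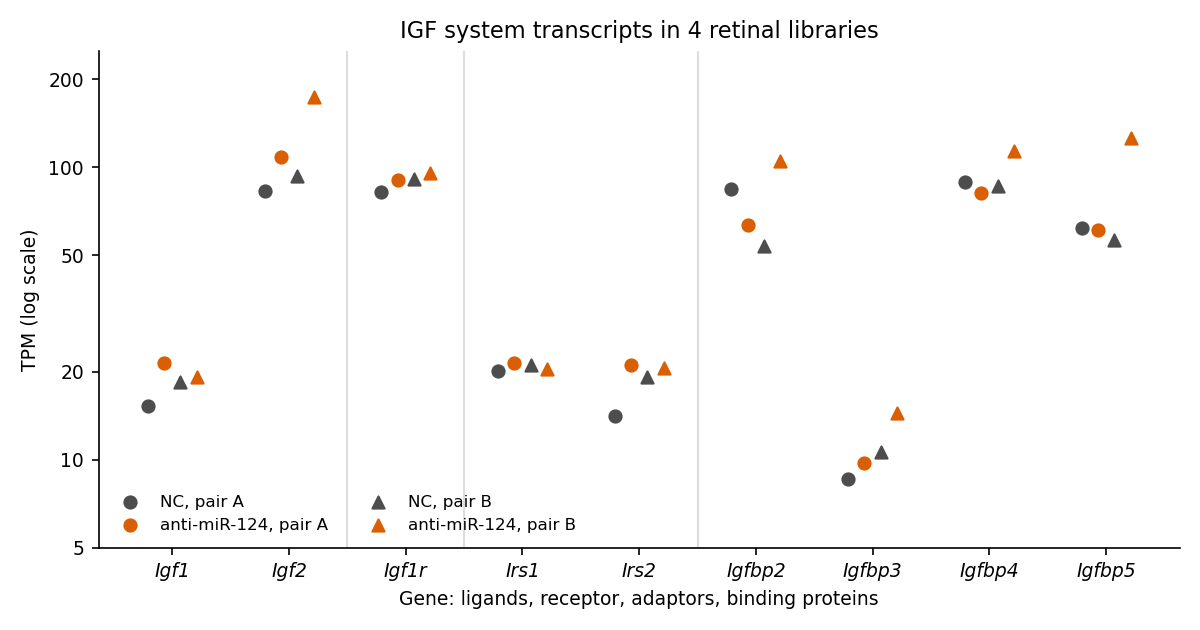
TPM of the 9 members (log scale) in each of the 4 libraries, 1 point per library, grey for NC and orange for anti-miR-124, circles for pair A and triangles for pair B. Anti-B is the highest of the 4 for Igf2, Igf1r and all 4 binding proteins, for example 126.2 TPM of Igfbp5 against 56.5 to 62.1.

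Igf2, on the minus strand of chromosome 7 (GRCm38 chr7:142650768-142666816), encodes the growth factor that dominates before birth. The counts were 2195 in NC-A, 2524 in NC-B, 2831 in anti-A and 4939 in anti-B, or 82.9, 93.2, 108.7 and 174.2 TPM in that order, which is kept for the 4 values of each gene from here on. Both anti-miR-124 libraries lay above both NC libraries, and anti-B was far above the other 3. Anti-A was 1.22-fold above NC-A (log2 ratio 0.28) and anti-B 1.87-fold above NC-B (0.91). The fitted log2 fold change was 0.63 (standard error 0.20, past an unadjusted 0.05 and with an adjusted p of 0.989 in edgeR's quasi-likelihood test), which is 1.55-fold, and it was 0.27 without anti-B. Without anti-A, which leaves anti-B as the only anti-miR-124 library, it was 0.92. The antisense locus Igf2os, which overlaps Igf2, had 8 to 22 counts, and Mir483, which lies within Igf2, had 0 in each library; how the counting used strand is not given.

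Igf1 on chromosome 10 (chr10:87858265-87937047, plus strand) encodes the ligand that carries much of the effect of growth hormone after birth. Its 4 counts were 695 and 858 (NC) and 958 and 931 (anti-miR-124), or 15.3, 18.5, 21.5 and 19.2 TPM. Here the difference lay in pair A, with a log2 ratio of 0.38, and was 0.056 in pair B. The log2 fold change of 0.22 (standard error 0.096) was 0.12 to 0.31 when each library was left out in turn. Igf2 had 5.04 to 5.41 times the TPM of Igf1 in 3 libraries and 9.09 times in anti-B. The antisense locus Igf1os had 0 to 2 counts.

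Igf1r, the receptor (chr7:67951833-68233668, plus strand), was the member with the highest counts and among those with the smallest differences. Reads numbered 5557 and 6269 in the NC group and 5999 and 6912 in the anti-miR-124 group. By TMM-normalized CPM the NC libraries (345.0 and 347.2) lay below the anti-miR-124 libraries (351.4 and 366.7), but by TPM the groups overlapped, since 90.5 in anti-A was below 90.9 in NC-B. The log2 fold change was 0.053 (standard error 0.065). Relative to Insr, which encodes the insulin receptor, its TPM was 1.56 and 1.55 times (NC) and 1.68 and 1.67 times (anti-miR-124).

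**Figure D2:**
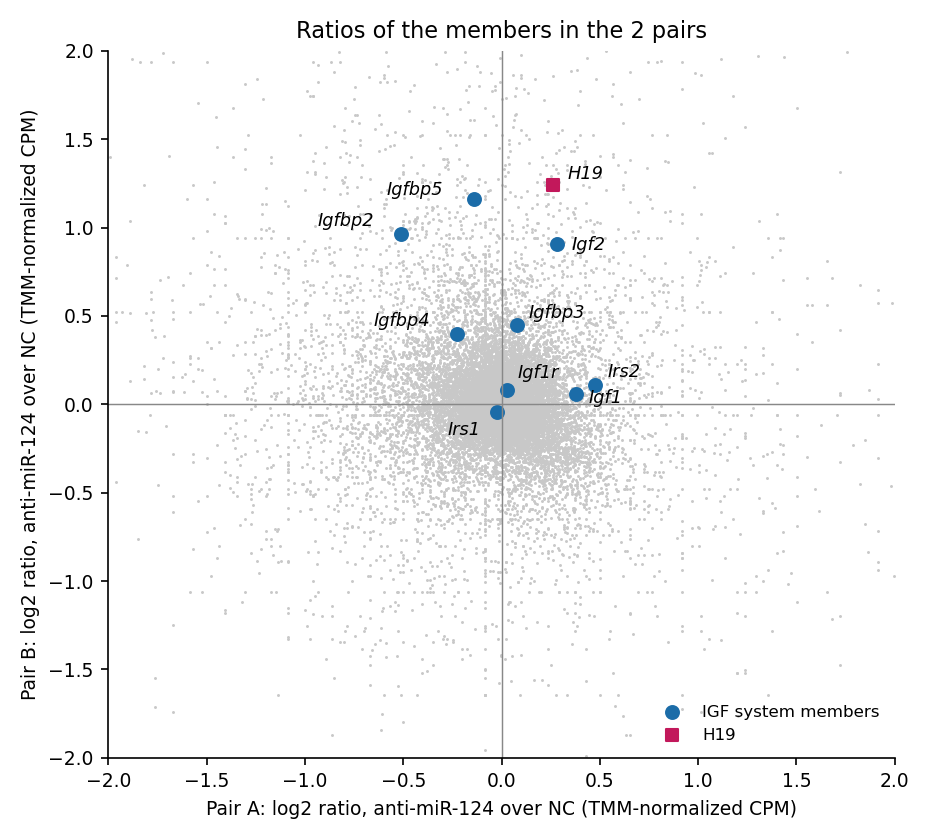
Log2 ratio of anti-miR-124 over NC in pair A (x axis) and pair B (y axis), from TMM-normalized CPM, for the 9 members (blue), H19 (red square) and all other genes tested (grey, 343 outside the axes). Igf2 and H19 are above 0 on both axes, Igfbp2, Igfbp4 and Igfbp5 are above 0 in pair B only, and Igf1 and Irs2 lie along the axis of pair A.

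Among the binding proteins, Igfbp5 (chr1:72858065-72874865, minus strand) had the highest ratio of all members in pair B and none above 0 in pair A. The NC counts were 1929 and 1798 and the anti-miR-124 counts 1857 and 4201, which is 62.1 and 56.5 TPM against 60.8 and 126.2. NC-A, NC-B and anti-A were alike and anti-B stood alone, 2.24-fold above NC-B, while the log2 ratio of pair A was -0.14. The log2 fold change was 0.60 (standard error 0.30). It was -0.007 without anti-B and 1.02 without anti-A, which leaves anti-B as the only anti-miR-124 library.

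Igfbp2, which lies next to Igfbp5 on chromosome 1 on the opposite strand (chr1:72824480-72852474), pointed opposite ways in the pairs. NC-A had 84.3 TPM (634 counts) and NC-B 53.7 TPM (414), while anti-A had 63.6 TPM (471) and anti-B 104.6 TPM (843). The groups overlapped, the log2 ratios were -0.51 (pair A) and 0.96 (pair B), and the log2 fold change was 0.22 (standard error 0.30). Each library weighed on the value, which was 0.66 without NC-A, 0.53 without anti-A, -0.12 without NC-B and -0.17 without anti-B.

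Igfbp4 (chr11:99041260-99052646, plus strand) showed the same signs with smaller ratios. The NC group had 978 and 971 counts (89.1 and 86.4 TPM) and the anti-miR-124 group 885 and 1336 (81.9 and 113.6 TPM). The log2 ratios were -0.23 and 0.40, and the log2 fold change was 0.10 (standard error 0.15).

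Igfbp3, whose product is the main carrier of IGF in the blood, was the least abundant of the 4 member binding proteins (chr11:7206086-7214081, minus strand). Counts of 119 and 150 (8.61 and 10.6 TPM) in the NC group stood against 133 and 214 (9.78 and 14.5 TPM) in the anti-miR-124 group. The ratios were above 0 in both pairs (log2 0.076 and 0.45), but the groups overlapped, and the log2 fold change was 0.29 (standard error 0.22). It was -0.007 without anti-B.

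Summed over the 4 binding proteins, the level was 244.0 and 207.3 TPM (NC) and 216.1 and 358.9 TPM (anti-miR-124). Anti-A lay between the NC libraries and anti-B above both. Igfbp5 made up 25.4% to 28.1% of that sum in 3 libraries and 35.2% in anti-B, and Igfbp3 3.53% to 5.11% in all 4. The 2 ligands summed to 98.3 and 111.6 TPM (NC) and to 130.2 and 193.3 TPM (anti-miR-124). The binding proteins together had 2.48 times the TPM of the ligands in NC-A and 1.66 to 1.86 times in the other 3.

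**Figure D3:**
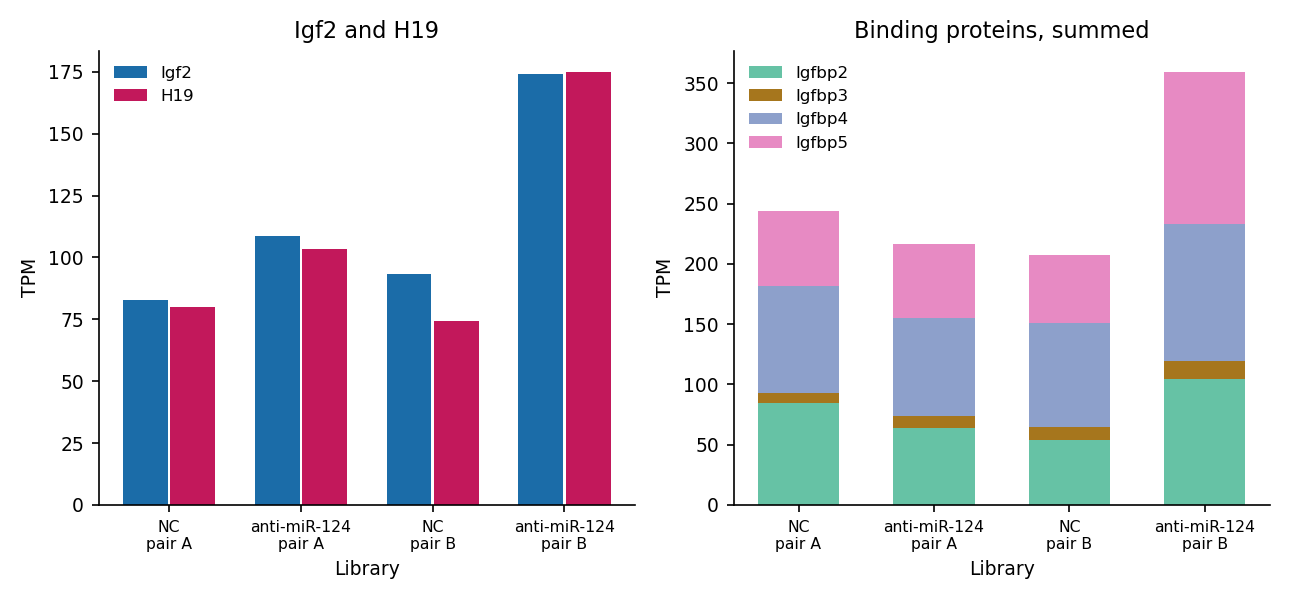
TPM in each of the 4 libraries of Igf2 and H19 (left) and of the 4 binding proteins stacked (right). Igf2 has 0.996 to 1.25 times the TPM of H19, and both are highest in anti-B, where the binding proteins sum to 358.9 TPM.

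Of the adaptors, Irs2 (chr8:10986961-11008430, minus strand) had larger ratios than Irs1. The NC group had 301 and 418 counts of Irs2 and the anti-miR-124 group 443 and 471 (14.1 and 19.2 TPM against 21.1 and 20.6). The NC library of pair A was low and the other 3 were close together. The log2 ratio was 0.47 (pair A) and 0.11 (pair B), and the log2 fold change of 0.28 (standard error 0.12) was 0.14 without NC-A, the library with lens transcripts, and 0.45 without NC-B. The overlapping locus 9530052E02Rik had 0 to 2 counts.

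Irs1 (chr1:82233105-82291439, minus strand) had the narrowest range of TPM of all members. Its counts were 980 and 1052 (NC) and 1024 and 1067 (anti-miR-124), with 20.2 to 21.4 TPM in all 4. The log2 fold change was -0.031 (standard error 0.073), and the ratio of pair A changed its sign with the scale (log2 -0.021 with TMM and 0.087 with TPM). Irs1 had 1.43 times the TPM of Irs2 in NC-A and 0.993 to 1.1 times in the other libraries.

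**Figure D4:**
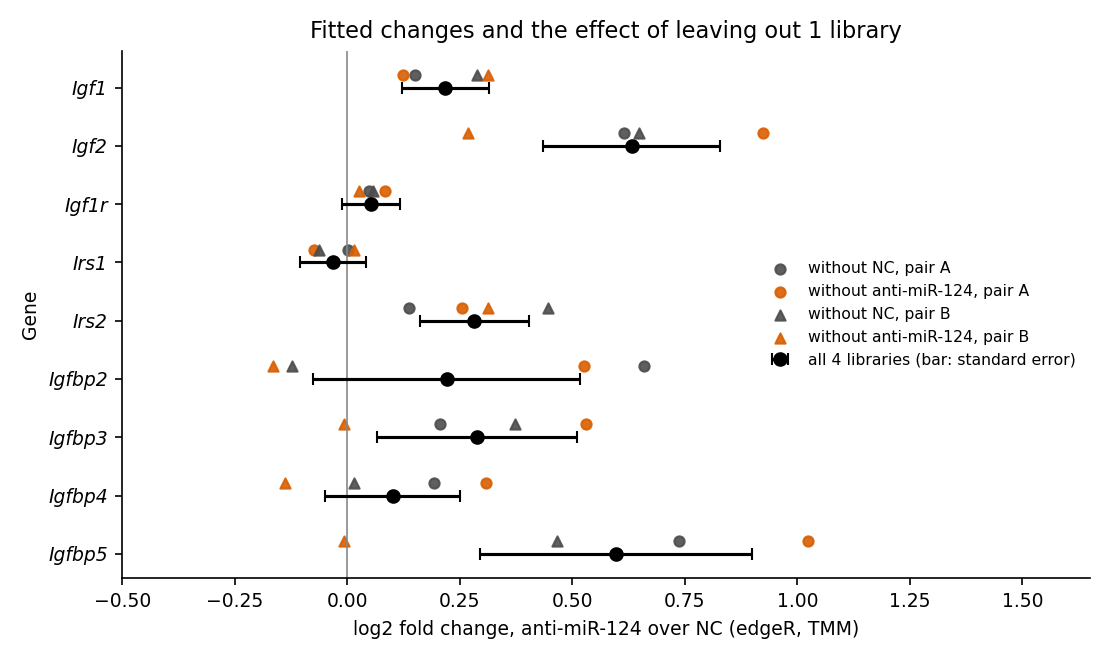
Fitted log2 fold change of each member between anti-miR-124 and NC (black, with standard error, 2 libraries per group) and the value after leaving out each library (coloured). Without anti-B, Igfbp2, Igfbp3, Igfbp4 and Igfbp5 lie below 0 and Igf2 moves to 0.27.

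The promoters of both adaptors and of Igfbp2 shared an E-box, the palindrome CACGTG read by basic helix-loop-helix factors. It is shown as a description, and the motif was chosen after the values were seen. In the 300-base windows around the start sites of RefSeq (GRCm38.p6), it was found in 3 of the 9 members (3 of their 13 windows) and in 7.15% of all 32851 windows. The stretches are given 5′ to 3′ on the strand of the gene, with the E-box in capitals, 115, 44 and 142 bases before the start site.
Irs1 (chr1:82291519-82291584): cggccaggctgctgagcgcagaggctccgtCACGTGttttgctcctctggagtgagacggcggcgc
Irs2 (chr8:11008938-11009003): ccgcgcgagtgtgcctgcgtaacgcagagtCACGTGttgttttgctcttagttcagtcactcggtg
Igfbp2 (chr1:72824308-72824373): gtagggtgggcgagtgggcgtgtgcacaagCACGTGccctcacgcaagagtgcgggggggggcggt

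A match to the TATA box (TATAAA or TATATA, searched on both strands) was found in 2 members, Igfbp3 and Igfbp4, 30 and 28 bases before the start site. By window, it was found in 2 of the 13 windows of the members and in 17.1% of all windows. Igfbp3 and Igfbp4 are the members with the same motif at the usual distance from the start. Their log2 ratios had opposite signs in pair A and the same sign in pair B, a sign shared by every member but Irs1. The motif is in capitals.
Igfbp3 (chr11:7213918-7213983): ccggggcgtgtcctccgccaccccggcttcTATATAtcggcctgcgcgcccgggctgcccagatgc
Igfbp4 (chr11:99041186-99041251): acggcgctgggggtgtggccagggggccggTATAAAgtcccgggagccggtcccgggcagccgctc

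The GC box GGGCGG, read on both strands, was found in 5 members (Igf2, Igf1r, Igfbp2, Irs1 and Irs2). By window, it was found in 6 of the 13 windows of the members and in 35.7% of all windows. None of the 3 motifs was found in the windows of Igf1 and Igfbp5. A match describes these letters in this window. It was not tested as a binding site, nor was a link of any motif to the ratios.

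The genes nearest to Igf2 in regulation and in place were looked at next. H19, the noncoding RNA transcribed from the other parental allele downstream of Igf2 on chromosome 7 under the same imprinting control region, had 972 and 923 counts (NC) and 1235 and 2274 counts (anti-miR-124). Its TPM moved with that of Igf2, with a ratio of Igf2 to H19 of 1.04 and 1.25 (NC) and 1.05 and 0.996 (anti-miR-124). The log2 fold change of H19 was 0.79 (standard error 0.23), 0.38 without anti-B and 1.11 without anti-A. Dlk1, an imprinted gene of chromosome 12 that encodes a transmembrane protein of the Notch ligand family, had 29 and 22 counts (NC) and 55 and 66 (anti-miR-124) (log2 fold change 1.16, standard error 0.31). Meg3, the noncoding RNA of the other allele at the same locus, overlapped between the groups (log2 fold change -0.27, standard error 0.12). Of the 7 regulators of Igf2 mRNA and imprinted neighbours, H19 and Dlk1 were past an unadjusted p-value of 0.05, both higher. Of all genes tested, 2.23% were past it and higher. The median log2 fold change of the list was 0.065.

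Of 11 proteases and inhibitors that act on the binding proteins, 1 was past an unadjusted p-value of 0.05 and higher, against 2.23% of all genes. This was Timp2, an inhibitor of metalloproteinases, with 1306 and 1538 counts (NC) and 1619 and 2231 (anti-miR-124) (log2 fold change 0.36, standard error 0.11). Its log2 fold change was 0.19 without anti-B and 0.51 without anti-A. Htra1, a secreted serine protease that cleaves Igfbp5 among other substrates, showed a log2 fold change of 0.097 (standard error 0.13). The median of the list was 0.069 (-0.19 for pair A, 0.31 for pair B).

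Among 12 other genes of IGF and insulin, 6 were tested and none was past an unadjusted p-value of 0.05. Ins1 had no count and Ins2 2 to 3 counts per library, and Igfbp1, Igfbp6, Igfals and Irs3 had at most 5. Insr, the insulin receptor, showed a log2 fold change of -0.052 (standard error 0.073). Igfbp7, a secreted protein of vessels with low affinity for IGF, had 1110 and 435 counts (NC) and 454 and 663 (anti-miR-124) (log2 fold change -0.58, standard error 0.44), the highest value being that of the NC library with lens transcripts. That log2 fold change was 0.36 without NC-A and -1.16 without NC-B. The median of the list was 0.052.

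No gene was past an unadjusted p-value of 0.05 in the 3 lists downstream of the receptor or in the growth hormone axis, which acts upstream of Igf1. The 18 adaptors and phosphatases close to the receptor had log2 fold changes with a median of 0.069. Of these, 15 of 18 were above 0, against 8912 of all 17766 genes tested. Both anti-miR-124 libraries lay above both NC libraries in 8 of the 18 genes, against 16.5% of all genes. The 2 most abundant were Ptpn11, the phosphatase SHP2, with 0.15 (standard error 0.074), and Crk, an SH2-SH3 adaptor, with -0.042 (standard error 0.074). The 30 genes of the PI3K-AKT-mTOR-FOXO cascade had a median of 0.03, and Akt1 and Gsk3a, a kinase and its substrate, had 0.047 each (standard errors 0.075 and 0.074). The 16 genes of the RAS-MAPK cascade had a median of -0.002, with 0.068 (standard error 0.087) for Mapk3, which encodes an ERK kinase. In the growth hormone axis, 4 of 5 genes were tested, with a median of 0.007, and Jak2 and Stat5b, which relay the hormone's signal to the Igf1 gene, had 0.001 and 0.013. Over these 7 lists, 92 of 99 genes were tested, 59 had a log2 fold change above 0 and the median was 0.03. Over all genes tested, 8912 of 17766 were above 0 and the median was 0.001.

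**Figure D5:**
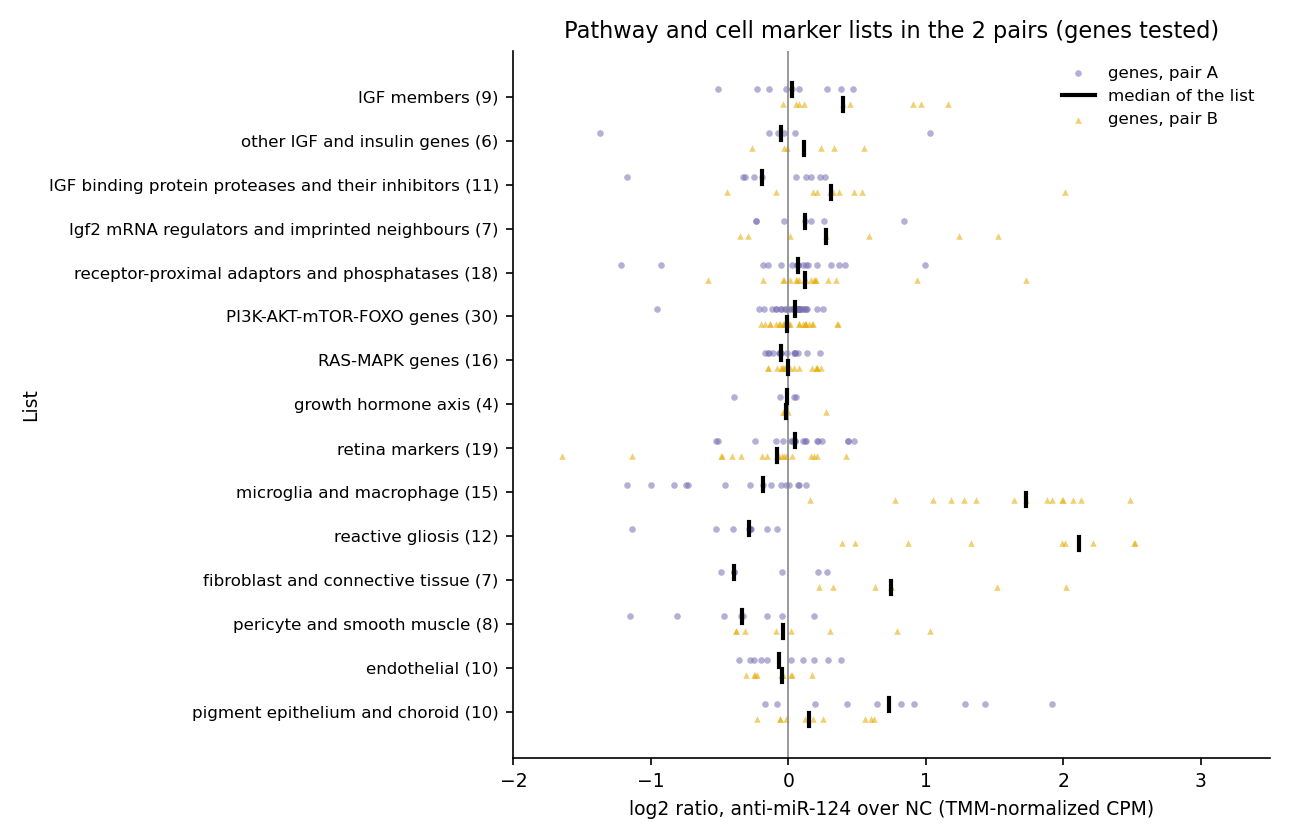
Log2 ratio of anti-miR-124 over NC in pair A (violet circles) and pair B (yellow triangles) for each tested gene of the members, the 7 pathway lists and 7 marker lists, with the median of each list as a black bar and the number of genes tested in parentheses (8 points lie outside the axis). The median of the members lies at 0.026 (pair A) and 0.40 (pair B), and the medians of microglia and gliosis genes are below 0 in pair A and at 1.73 and 2.11 in pair B.

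Summed markers of microglia and macrophages, of reactive gliosis and of connective tissue were highest in anti-B, as were Igf2 and the binding proteins. The 15 markers of microglia and macrophages had log2 ratios with medians of -0.18 (pair A) and 1.73 (pair B), and none was at 0 in every library. Genes of reactive gliosis (12 of 13 tested) had medians of -0.29 and 2.11, and markers of fibroblasts and connective tissue (7 of 10 tested) -0.40 and 0.75, with summed TPM of 92.2 and 64.2 (NC) and 68.7 and 98.1 (anti-miR-124). The signs are those of Igfbp2, Igfbp4 and Igfbp5 in both pairs. The 10 markers of pigment epithelium and choroid had medians of 0.73 (pair A) and 0.15 (pair B), with summed TPM of 84.1 in NC-A and 125.7 to 171.7 in the other libraries, an order also seen for Irs2 and Igf1. Endothelial markers (289.1 to 325.3 TPM summed, 10 genes) had a median log2 fold change of -0.061, those of pericytes and smooth muscle (91.2 to 122.7 TPM, 8 of 9 tested) -0.20, and the retinal markers -0.004. Interferon-stimulated genes were higher in both pairs (medians 2.18 and 3.17). Of these, 16 of 18 were past an unadjusted p-value of 0.05 and higher, against 2.23% of all genes. The part of these cells and genes in the values of the members was not tested.

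The profiles most like each member, by the distance between centred log2 CPM over the 4 libraries, were sought among 208 genes of the fixed lists. They are a description, since 4 points from libraries that share these differences give little to tell genes apart. Closest to Igf2 were Cx3cr1 of microglia (distance 0.18) and H19 (0.26). In pair A, where Igf2 had a log2 ratio of 0.28, Cx3cr1 had 0.079 and the 15 markers of microglia and macrophages a median of -0.18. Igfbp5 was closest to Fcrls, another microglial gene (0.13), and to the cytokine receptor gene Osmr (0.15), Igfbp4 to Cp (0.043) and S1pr3 (0.081), and Igfbp2 to the intermediate filament gene Vim (0.13) and to Postn (0.19). For Igfbp3 they were the collagen gene Col3a1 (0.17) and Timp2 (0.19). Igf1 was nearest to the endothelial gene Emcn (0.065) and the adaptor gene Shc3 (0.068), and Irs2 to Rgr of the pigment epithelium (0.12) and Shc3 (0.13). Emcn had 26 to 36 counts and a log2 fold change of 0.20, against a median of -0.061 for the endothelial markers. Among the steadier members, Igf1r was nearest to Grb2 (0.03) and Tsc2 (0.031) and Irs1 to Crk (0.025).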

How the data were processed

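For 4 libraries, the authors deposited raw counts of reads on each gene beside gene lengths and positions. Their RPKM columns were not used. The submitters' processing notes name HISAT2 and mm9, but 99.8% of 36837 symbols matched to RefSeq overlapped its GRCm38 positions, so coordinates are given as GRCm38. The counting tool and its use of strand are not given in the sources used here. Columns were assigned to groups by the eye in their names. The smallest chi-square per degree of freedom between libraries was 3.67, so none were duplicates. The study calls the 2 libraries of a group biological replicates, each of pooled retinas, and p-values measure the spread between these pools.

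TPM was computed from counts and lengths. The test was edgeR's (4.0.16, R 4.3.3) two-sided quasi-likelihood test with TMM normalization, filterByExpr, no covariate and Benjamini-Hochberg adjustment at 0.05, after a test on simulated counts. Alternatives used DESeq2 1.42.0 and limma 3.58.1, other scalings, filters and designs, and leaving out each library. The depth limits genes such as Igfbp3, with 119 to 214 counts. Named are the members, and from 7 pathway lists the genes past an unadjusted p-value of 0.05 and the 2 most abundant of each. The values of 2 genes that the rules name are not reported here. Marker lists are given by sums and medians. Members and lists were chosen with earlier results of these data known. The rule also called for the sequences of miR-124-3p and of proteins, which are not used here. The promoter motifs were chosen after the values were seen. Figures and the remaining steps used Python 3.11.15.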

Additional observations from a re-analysis of the deposited data

How the results depend on the processing

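Of 117 values of single members under the alternatives, 106 kept their direction and their side of the threshold, 7 changed sign and 4 passed it. Without a filter on low counts, 379 of 31982 genes and 2 members (Igf2 and Igfbp5) passed the adjusted threshold, and 5 members had an unadjusted p-value under 0.05. DESeq2 called 36 genes and none of the members. Over the fits that left out each library in turn, 0 to 256 genes and 0 to 2 members passed, and 2 to 5 members had an unadjusted p-value under 0.05. The 256 genes, Igf2 and Igfbp5 among them, were called without anti-A. The log2 fold change ranged over these fits from -0.17 to 0.66 for Igfbp2, -0.007 to 0.53 for Igfbp3, -0.14 to 0.31 for Igfbp4, -0.007 to 1.02 for Igfbp5 and -0.074 to 0.015 for Irs1. These fits leave 1 library in a group, which is assumed to vary like the other group. With TMM, total counts, DESeq2 size factors or lens genes left out of the TPM sum, 1 member (Irs1) was lower in both pairs in place of 0. With the replicate block, 0 genes passed and 376 had an unadjusted p-value under 0.05, and Igf2 had a log2 fold change of 0.60. Libraries with the same number did not deviate together (correlation -0.162), and the main fit took no pairing from the numbers. With 2 libraries per group, this correlation cannot tell whether a shared number marks the same animals. With the numbers crossed, a block chosen after seeing the data, 160 genes and 2 members passed and 5 members had an unadjusted p-value under 0.05. DESeq2 size factors, total counts, upper quartile, a mean of at least 10 counts, limma-voom and lens genes left out gave 0 genes each. The causes were not tested.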
